A study of Mus musculus with 19 samples.

Results

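TRBV2 and TRBV20 are V segments of the mouse T cell receptor β chain, named Vβ4 and Vβ15 in the older nomenclature. Their members were taken as every entry whose V segment was listed exactly as TRBV2 or TRBV20, an entry being a CDR3 amino acid sequence with its TRBV segment, its TRBJ segment and its read count. TRBV2 had 101989 entries with 6567579 reads and TRBV20 had 139817 entries with 5254994 reads. Together they held 241806 of 2146950 entries and 11822573 of 145647255 reads, and they were 2 of the 22 TRBV segments listed. The pair was chosen because both had a lower share of reads in mediastinal nodes of sham-operated mice than in axillary nodes of adjuvant-treated mice, so that contrast is given as a description with no test.

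The 19 libraries were made from TCRβ transcripts of sorted CD4+ T cells of Balb/c mice, taken on day 7. After myocardial infarction (MI), made by ligating the left anterior descending coronary artery, cells came from the digested heart (3 libraries of 5000 cells) and from the mediastinal lymph nodes, which drain the heart (3 libraries). The sham group (4 libraries) gave mediastinal nodes after thoracotomy without ligation, and operated mice received buprenorphine. Axillary nodes came from mice injected subcutaneously with 1 mg of mouse heart extract (3 libraries) or 100 µg of porcine cardiac myosin (2 libraries), each in Titermax Gold adjuvant, or with 200 µl of that adjuvant alone (4 libraries). Every node library held 500000 cells. The labels give 200 or 600 µl of adjuvant for the immunised mice without assigning the volumes to samples, so volume and antigen cannot be told apart. Because only TCRβ transcripts were amplified, the sorted CD4+ identity could not be checked against marker genes. The labels do not say whether a library came from 1 animal, and the p-values therefore cover only sample-to-sample spread, which may be technical.

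A TCRβ chain is assembled from a V, a D and a J segment. The CDR3 loop, which contacts the peptide held by the MHC molecule, spans the joint: its first residues are encoded by the end of the V segment and its last ones by the J segment. TRBV2 is known for Vβ4 CD4+ T cells that recognise the LACK antigen of Leishmania major in BALB/c mice and for Vβ4 CD8+ T cells that expand in murine gammaherpesvirus infection. In the RefSeq annotation (GRCm38.p6), Trbv2 lies between Trbv1 and Trbv3, and Trbv20 lies between Trbv19 and Trbv21.

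The CDR3s printed here are those that the results below turn on, in the form in which they were deposited, which omits the conserved cysteine at the start and the phenylalanine at the end. The following TRBV2 and TRBV20 CDR3s were listed widely across nodes or were the most abundant of their segment in a library.
TRBV2 with TRBJ2-4, listed in all 16 nodes: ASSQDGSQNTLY
TRBV2 with TRBJ2-4, listed in all 16 nodes: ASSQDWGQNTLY
TRBV2 with TRBJ2-7, highest mean share over nodes: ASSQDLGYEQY
TRBV2 with TRBJ2-5, highest share in any node: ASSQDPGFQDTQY
TRBV2 with TRBJ1-2, most abundant in heart 1: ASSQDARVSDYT
TRBV2 with TRBJ1-2, most abundant in heart 2: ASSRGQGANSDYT
TRBV2 with TRBJ2-4, most abundant in heart 3: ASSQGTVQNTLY
TRBV20 with TRBJ1-3, listed in all 16 nodes and highest mean share: GARDNSGNTLY
TRBV20 with TRBJ1-3, listed in all 16 nodes: GARDSSGNTLY
TRBV20 with TRBJ2-3, listed in all 16 nodes: GARDSAETLY
TRBV20 with TRBJ1-2, highest share in any node: GARPGANSDYT
TRBV20 with TRBJ1-3, most abundant in heart 1: GARDRGQRSGNTLY
TRBV20 with TRBJ2-7, most abundant in heart 3: GAGQNYEQY

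The start of the CDR3 told TRBV2 and TRBV20 apart from each other. In nodes, 98.3% of TRBV2 reads began with ASS and 97.2% of TRBV20 reads began with GA (means of 16 libraries). ASS was not particular to TRBV2, as it also began 98.9% of TRBV5 reads and 96.6% of TRBV16 reads. The fourth residue was usually glutamine in TRBV2, where 80.3% of reads began with ASSQ (78.6% to 82.2% across nodes). TRBV5 shared that start, at 71.4% of its reads, and the next segment was TRBV12-1 at 3.96%. In TRBV20, 68.7% of reads began with GAR (66.9% to 71.4%), a start that averaged at most 0.00277% of the reads of any other segment. Aspartate came next in 32.8% of TRBV2 reads (ASSQD) and 21.1% of TRBV20 reads (GARD), and ASSQD also began 27.3% of TRBV5 reads. Hearts had the same starts with more spread between libraries, ASSQ in 77.3% ± 6.41 of TRBV2 reads in hearts and 80.3% in nodes, and GAR in 68.2% ± 7.76 of TRBV20 reads in hearts (SD, n = 3) and 68.7% in nodes.

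Library totals were 2426715 to 5126910 reads in hearts and 7534295 to 9235800 reads in nodes, while entries per node library ran from 45452 to 291639. Among the nodes, TRBV2 ranked 7th of the 22 segments with 4.64% ± 0.432 of library reads and TRBV20 ranked 9th with 3.67% ± 0.184 (SD, n = 16). No unique molecular identifiers are mentioned, so reads are not independent molecules and the intervals below cover counting error only. Fewer cells using a segment and less receptor RNA in each such cell cannot be told apart in these bulk libraries. The amplification used gene-specific primers, whose yield for each segment was not measured. In ranks and ratios between segments, that yield cannot be told apart from use of the segment.

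TRBV2 took a smaller share of reads in every mediastinal node than in any axillary node. Its share was 4.16, 4.43 and 4.16% of library reads in MI nodes, and 4.45, 4.04, 4.18 and 4.08% in sham nodes. It was 5.26, 4.89 and 5.004% in heart extract nodes, 4.72 and 5.14% in myosin nodes, and 4.68, 4.71, 5.20 and 5.09% in adjuvant nodes. The 7 mediastinal nodes ended at 4.45% and the 9 axillary nodes began at 4.68%, so the sites did not overlap. The sham nodes averaged 4.19% ± 0.184 and the adjuvant nodes 4.92% ± 0.264 (SD, n = 4 each), a log2 ratio of sham over adjuvant of -0.23 with a pooled SD of 0.0704.

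For TRBV20 the contrast was smaller. Its share was 3.48, 3.64 and 3.84% in MI nodes, and 3.51, 3.26, 3.69 and 3.67% in sham nodes. It was 3.54, 3.61 and 3.64% in heart extract nodes, 3.55 and 3.85% in myosin nodes, and 3.98, 3.85, 3.72 and 3.88% in adjuvant nodes. Every sham node was below every adjuvant node, but the highest sham value (3.69%) and the lowest adjuvant value (3.72%) were close, and the 7 mediastinal nodes overlapped the 9 axillary nodes. The sham nodes averaged 3.53% ± 0.200 and the adjuvant nodes 3.86% ± 0.107 (SD, n = 4 each), a log2 ratio of -0.13 with a pooled SD of 0.0653.

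Non-overlap between sham and adjuvant nodes was found for 31.8% of all segments (7 of 22), and non-overlap between all mediastinal and all axillary nodes for 13.6% (3 of 22). Because the members were chosen on the sham and adjuvant values, nothing is read from their being among these. TRBV4 and TRBV16 were the other segments whose sites did not overlap. TRBV4 lay in the same direction as TRBV2, with a log2 ratio of sham over adjuvant of -0.35, and TRBV16 lay in the opposite direction, at 1.02. Site, surgery and adjuvant injection change together in this design and cannot be told apart.

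**Figure D1:**
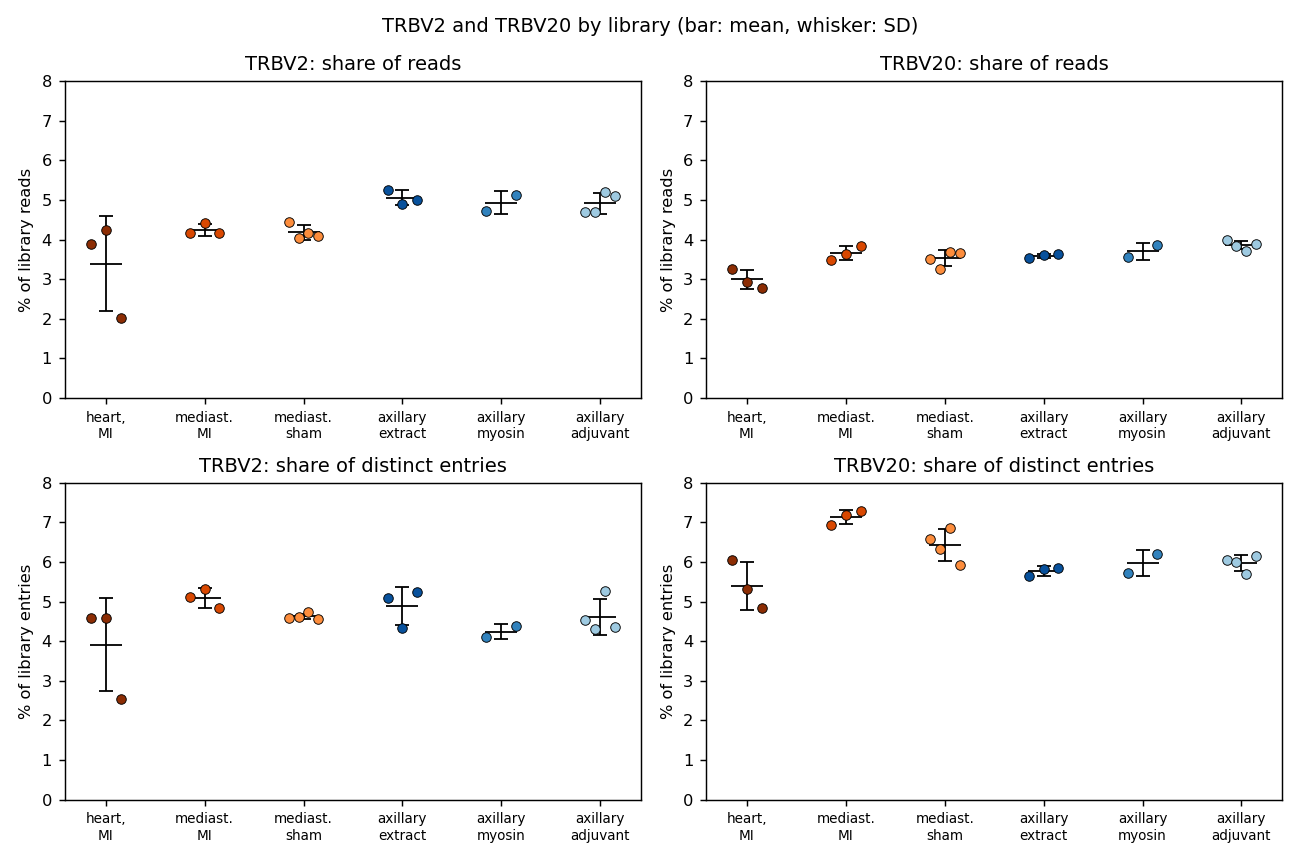
Share of library reads (upper panels, %) and of distinct entries (lower panels, %) held by TRBV2 and TRBV20 in each library, by group; points are libraries, and bars and whiskers are the mean and SD of 2 to 4 libraries. TRBV2 reads separate mediastinal nodes (4.04 to 4.45%) from axillary nodes (4.68 to 5.26%), whereas TRBV2 entries overlap between the sites.

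Sham and adjuvant nodes were apart in the share of reads, whereas their ranges overlapped in the share of distinct entries. TRBV2 made up 4.63% ± 0.0730 of entries in sham nodes and 4.61% ± 0.444 in adjuvant nodes (SD, n = 4 each), and its log2 ratio was 0.00848. TRBV20 made up 6.42% ± 0.403 of entries in sham nodes and 5.98% ± 0.192 in adjuvant nodes, so its log2 ratio of 0.10 pointed the other way, and the ranges overlapped for both segments. Entries were counted at unequal diversity: TRBV2 had 60.2, 55.3, 29.96 and 121 reads per entry in sham nodes and 84.5 to 150 in adjuvant nodes. The part of this diversity in the entry counts was not tested.

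TRBV20 had more entries for its reads than TRBV2. Its share of entries was 1.71 times its share of reads over the 16 nodes (1.52 to 1.99), against 1.02 times for TRBV2 (0.852 to 1.23). Ordered from the highest ratio, TRBV20 was 14th and TRBV2 16th of the 22 segments. In mediastinal nodes the ratio was 1.88 ± 0.128 for TRBV20 and 1.15 ± 0.0649 for TRBV2 (SD, n = 7). In axillary nodes it was 1.58 ± 0.0375 and 0.930 ± 0.0716 (SD, n = 9). The sites overlapped for both: mediastinal nodes began at 1.61 for TRBV20 and 1.03 for TRBV2, and axillary nodes ended at 1.62 and 1.05. The lowest mediastinal TRBV20 ratio was in sham node 4, whose whole library had 135 reads per entry, against 29.0 to 63.3 in the other mediastinal nodes. The part of this in the ratio was not tested.

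Some low TRBV2 entries repeated a CDR3 and TRBJ listed under another TRBV segment of the same library with at least 10 times the reads. Such entries held 2.55, 3.07 and 2.05% of TRBV2 reads in MI nodes and 1.20, 1.498, 2.44 and 0.307% in sham nodes, against 0.0280 to 0.955% in the 9 axillary nodes. Over all TRBV they held 0.378 to 1.05% of reads in mediastinal nodes and 0.332 to 0.603% in axillary nodes. The larger segment was TRBV5 for 67.7% of them, the segment whose CDR3s start like those of TRBV2. In TRBV20 the highest such share was 0.0121%, in a single sham node. At any ratio of reads, 40.7, 41.8 and 33.1% of TRBV2 reads in MI nodes had a CDR3 and TRBJ also listed under another segment. That share was 24.7, 27.6, 42.3 and 14.9% in sham nodes and 12.1 to 28.7% in axillary nodes. Over all TRBV it was 20.6 to 34.7% in mediastinal and 19.1 to 27.2% in axillary nodes, and in TRBV20 at most 0.0502%. Whether any of these entries were listed under the right segment was not tested. An alternative chosen after the data were seen left out only the entries with at least 10 times the reads under another segment. The log2 ratio of sham over adjuvant was then -0.24 for TRBV2 and -0.13 for TRBV20. The other shared reads were kept, so this alternative does not cover them.

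The segments whose log2 share of reads varied most like that of TRBV2 over the 16 nodes were TRBV4 (Pearson r = 0.81), TRBV17 (0.69) and TRBV13-3 (0.67). Within the 7 mediastinal nodes these values were 0.58, 0.74 and 0.56, and within the 9 axillary nodes -0.34, -0.17 and -0.02, so the likeness over all nodes was not present within axillary nodes. For TRBV20 they were TRBV17 (0.67), TRBV4 (0.59) and TRBV5 (0.52), with 0.62, 0.34 and 0.12 within mediastinal nodes and 0.57, 0.68 and 0.64 within axillary nodes. TRBV2 and TRBV20 themselves had r = 0.36 over all nodes, 0.18 within mediastinal and -0.25 within axillary nodes. These are descriptions over points that share library, depth and a fixed total.

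TRBV2 and TRBV20 paired with J segments differently from each other and from the pooled reads of the remaining segments. The share of a segment's reads with each TRBJ was compared within each of the 16 nodes by an exact two-sided sign-flip permutation test, with Benjamini-Hochberg adjustment over 36 differences. The smallest p this test can give is 3.05e-05, and it gives an adjusted p of 6.87e-05. TRBJ2-7 was used by 13.9% ± 1.23 of TRBV2 reads and 9.67% ± 1.12 of TRBV20 reads (SD, n = 16), 4.22 percentage points more in TRBV2 and higher in 16 of 16 nodes (exact permutation test, adjusted p = 6.87e-05). TRBJ2-4 (10.6% in TRBV2, 7.70% in TRBV20) and TRBJ2-5 (9.81% and 7.16%) were also higher in TRBV2 in 16 of 16 nodes, at the same adjusted p. TRBJ1-2 ran the other way in all 16 nodes, with 6.61% of TRBV2 reads and 8.28% of TRBV20 reads, again at that adjusted p. TRBJ1-1 was lower in TRBV2 (9.61% ± 1.44) than in TRBV20 (13.4% ± 1.496) by 3.83 points, with TRBV2 higher in 1 of 16 nodes (exact permutation test, adjusted p = 0.000129, n = 16). The shares of TRBJ2-1 and TRBJ2-2 did not pass the test between the pair (adjusted p = 0.667 and 0.0704, exact permutation test).

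Against the reads of the other 20 segments together, TRBV2 used TRBJ1-1 less, at 9.61% against 15.1%, in 16 of 16 nodes. It used TRBJ2-4 (10.6% against 8.38%), TRBJ1-2 (6.61% against 4.52%) and TRBJ1-5 (3.84% against 2.36%) more in 16 of 16 nodes. TRBV20 used TRBJ1-2 (8.28% against 4.52%) and TRBJ1-3 (10.8% against 8.29%) more, and TRBJ2-5 (7.16% against 9.87%), TRBJ2-7 (9.67% against 12.3%) and TRBJ1-1 (13.4% against 15.1%) less, each in 16 of 16 nodes. Each of these 9 differences had an adjusted p of 6.87e-05 by the exact permutation test. Counted over distinct CDR3s in place of reads, the TRBJ1-1 difference of TRBV20 was -0.34 percentage points, with TRBV20 higher in 7 of 16 nodes (exact permutation test, adjusted p = 0.104), so that call rests on reads.

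**Figure D2:**
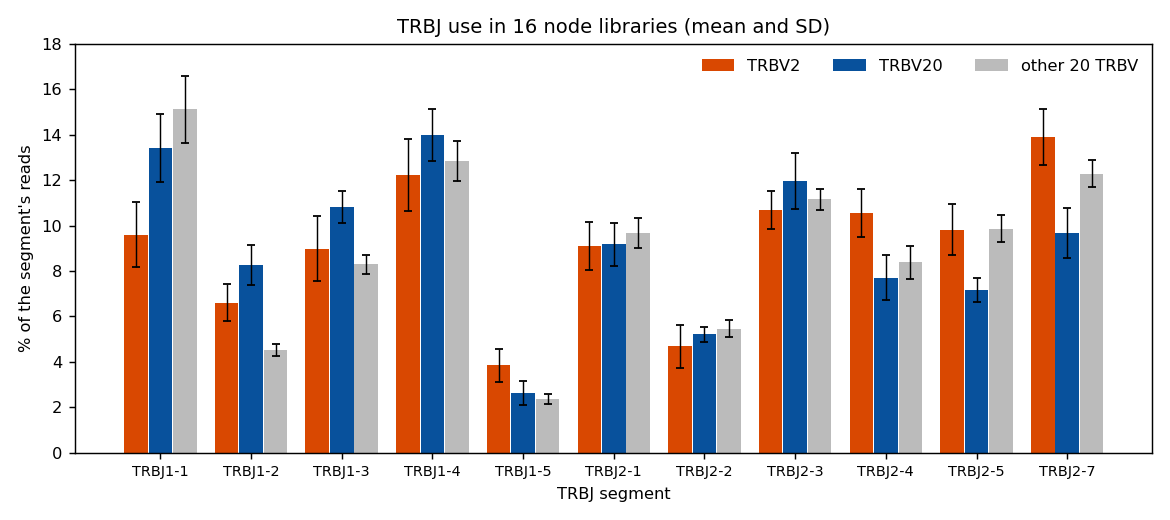
Share of reads (%) with each TRBJ segment among TRBV2, TRBV20 and the other 20 TRBV segments; bars are means and whiskers SD over 16 node libraries. TRBV2 is lowest for TRBJ1-1 (9.61%) and highest for TRBJ2-7 (13.9%), and TRBV20 is highest for TRBJ1-2 (8.28%) and lowest for TRBJ2-5 (7.16%).

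J use within each segment also varied by site, described here with no test. Within TRBV2, the sham range lay below the adjuvant range for TRBJ1-1 (means 8.10% and 10.6%) and TRBJ1-4 (10.7% and 13.8%) and above it for TRBJ2-2 (5.90% and 3.60%), 3 of the 11 TRBJ. Within TRBV20 it lay below for TRBJ1-3, TRBJ1-4 and TRBJ1-5 and above for TRBJ2-1, TRBJ2-3, TRBJ2-4 and TRBJ2-7, 7 of the 11. Over all TRBV-TRBJ combinations 18.6% (45 of 242) did not overlap between sham and adjuvant nodes. The TRBJ1 cluster together held 40.5, 35.97, 37.5 and 30.7% of TRBV2 reads in sham nodes, against 49.1, 42.6, 44.9 and 44.7% in adjuvant nodes. It held 48.1, 44.8, 44.7 and 42.2% of TRBV20 reads in sham nodes, against 53.3, 52.8, 52.1 and 53.1% in adjuvant nodes. The other 20 segments lay in the same direction, with means of 39.6% in sham nodes and 45.4% in adjuvant nodes.

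CDR3 length set the pair apart as well. TRBV2 CDR3s averaged 12.59 ± 0.0465 residues and TRBV20 CDR3s 11.26 ± 0.0340 residues over reads (SD, n = 16 nodes), a difference of 1.33 residues in the same direction in 16 of 16 nodes (exact sign-flip permutation test, adjusted p = 6.87e-05). The other segments together averaged 12.10 ± 0.0191 residues, so TRBV2 was 0.49 residues longer and TRBV20 0.84 residues shorter, both in 16 of 16 nodes and at that adjusted p. Ranked from the shortest mean, TRBV20 was 4th and TRBV2 21st of the 22 segments, with TRBV5 the longest at 12.67 residues. The most frequent length was 13 residues in TRBV2 (34.5% of reads), 11 in TRBV20 (34.4%) and 12 in the others (30.6%).

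**Figure D3:**
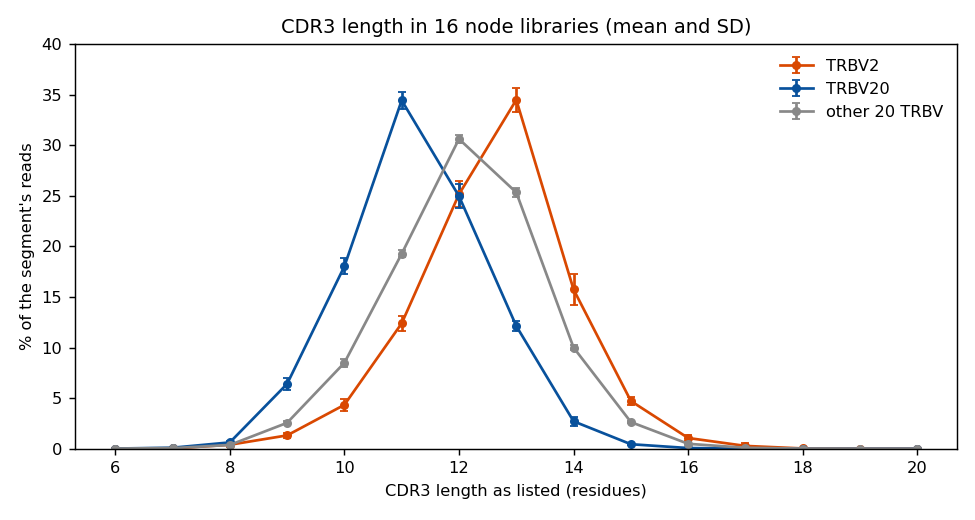
Distribution of CDR3 length (residues, as listed) over the reads of TRBV2, TRBV20 and the other 20 TRBV segments, with the share of the segment's reads in %; points are means and whiskers SD over 16 node libraries. TRBV20 peaks at 11 residues, the other segments at 12 and TRBV2 at 13.

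Most CDR3s of both segments were listed in 1 node library only, 81.3% of 72505 distinct TRBV2 CDR3s and 78.0% of 90535 distinct TRBV20 CDR3s, with 80.8% over all TRBV. TRBV20 had 14 CDR3s listed in all 16 nodes (0.0155%, Wilson 95% interval 0.00921 to 0.0260%) and TRBV2 had 2 (0.00276%, 0.000756 to 0.0101%), beside 97 of 1491585 over all TRBV (0.00650%). All 14 of the TRBV20 CDR3s began with GAR, 6 with GARD, 4 with GARQ and 4 with GART. Both TRBV2 CDR3s began with ASSQD and used TRBJ2-4.

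GARDNSGNTLY was the most abundant TRBV20 CDR3 by mean share, with a lowest share of 0.0913%, a median of 0.357% and a highest of 0.558% of TRBV20 reads across nodes. GARDSSGNTLY had a median of 0.154% (0.0907 to 0.313%). GARDSAETLY had a median of 0.150% (0.0924 to 0.290%). These 3 CDR3s were listed in every node, after surgery and after injection. GARPGANSDYT stood high in a single library: it had 2629 reads, 0.855% of TRBV20 reads (Wilson 95% interval 0.823 to 0.888%), in myosin node 1, 53 reads in myosin node 2, 3 to 64 reads in 5 mediastinal nodes, and was not listed in the other 9 nodes.

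Among TRBV2 CDR3s, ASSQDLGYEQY had the highest mean share but was uneven. It was listed in 13 nodes, with 393, 123 and 1058 reads in MI nodes, and 7107, 2012, 108 and 492 reads in sham nodes, against at most 303 reads in an axillary node. Sham node 1 alone gave it 1.90% of TRBV2 reads. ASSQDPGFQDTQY had 57 and 74 reads in MI nodes 1 and 3, 35 reads in sham node 3 and 7181 reads in sham node 4, 2.06% of TRBV2 reads there (Wilson 95% interval 2.01 to 2.10%), and was listed in 0 axillary nodes. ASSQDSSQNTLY was spread more evenly, listed in 15 nodes with a median of 0.0905% and a highest share of 0.330%.

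Infarction was set against sham surgery to ask whether ligation of the artery changed the use of these segments in the draining node. The sham values here, and the adjuvant values in the antigen comparisons, are those on which the pair was chosen. Neither segment's share of reads passed the test. TRBV2 averaged 4.25% ± 0.155 in MI nodes (SD, n = 3) and 4.19% ± 0.184 in sham nodes (n = 4), a log2 ratio of 0.02 with SE 0.0480 (edgeR quasi-likelihood test, adjusted p = 0.976). TRBV20 averaged 3.65% ± 0.180 in MI nodes and 3.53% ± 0.200 in sham nodes, a log2 ratio of 0.05 with SE 0.0456 (edgeR, adjusted p = 0.976). The ranges overlapped for both segments, while 4.55% of the 22 segments did not overlap, and 0% passed the test in this comparison.

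J use within the segments gave 0 of 22 member combinations past the edgeR test in MI against sham nodes, with 0% of all 242 combinations called. DESeq2 likewise called 0 of the 22. Before adjustment, 2 of the 22 had an edgeR p under 0.05. The share of all combinations under 0.05 before adjustment was not counted, so nothing is read from this. TRBV2 with TRBJ2-2 had the smallest p among TRBV2 combinations, with 4.95, 4.99 and 5.14% of TRBV2 reads in MI nodes and 6.04, 6.14, 4.85 and 6.56% in sham nodes (log2 ratio -0.23, SE 0.0937, edgeR adjusted p = 0.928). TRBV20 with TRBJ1-4 had 13.9, 13.6 and 14.3% of TRBV20 reads in MI nodes and 13.0, 12.4, 13.1 and 11.6% in sham nodes (log2 ratio 0.16, SE 0.0639, edgeR adjusted p = 0.928). The groups overlapped for the TRBV2 combination and not for the TRBV20 one, and 8.68% of all combinations (21 of 242) did not overlap between MI and sham nodes.

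Mean CDR3 length was 12.59 residues in MI nodes and 12.62 in sham nodes for TRBV2, and 11.26 and 11.23 residues for TRBV20; neither passed limma's test (adjusted p = 0.976 each). The 10 largest CDR3s held 1.81, 3.34 and 1.81% of TRBV2 reads in MI nodes and 6.56, 3.19, 1.07 and 6.34% in sham nodes, a log2 ratio of -0.64 with SE 0.500 (limma, adjusted p = 0.434). Sham node 3 lay below all MI nodes, and without it the log2 ratio was -1.20 (limma, adjusted p = 0.0109). In that setting 57.9% of the segments passed (11 of 19). Sham nodes 1 and 4, where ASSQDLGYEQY and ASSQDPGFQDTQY stood high, were the most concentrated. In TRBV20 the 10 largest CDR3s held 1.66, 1.83 and 2.24% in MI nodes and 1.97, 3.11, 1.45 and 2.81% in sham nodes (log2 ratio -0.24, SE 0.465, limma adjusted p = 0.696). In 5000 drawn reads, MI nodes had 3158 to 3659 distinct TRBV2 CDR3s and sham nodes 1349 to 3624 (limma, adjusted p = 0.412). None of the 19 segments tested (0%) passed for length, concentration or diversity.

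The antigens were set against adjuvant alone to ask whether immunisation with cardiac protein moved these segments. TRBV2 averaged 5.004% ± 0.208 after antigen (SD, n = 5) and 4.92% ± 0.264 after adjuvant (n = 4), a log2 ratio of 0.02 with SE 0.0422 (edgeR, adjusted p = 0.896). TRBV20 averaged 3.64% ± 0.127 after antigen and 3.86% ± 0.107 after adjuvant, a log2 ratio of -0.08 with SE 0.0401 (edgeR, adjusted p = 0.381). Of all segments 9.09% (2 of 22) were called, neither of them a member, and 4.55% (1 of 22) did not overlap between antigen and adjuvant nodes, again no member. Heart extract alone gave log2 ratios of 0.04 for TRBV2 and -0.10 for TRBV20 (edgeR, adjusted p = 0.641 and 0.306; 9.09% of segments called). Myosin alone gave 0.00294 and -0.06 (edgeR, adjusted p = 0.974 each; 0% called).

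MI over sham minus antigen over adjuvant contains the adjuvant minus sham values on which the pair was chosen. It is therefore given as a description, and its edgeR test is not read. The difference of log2 ratios was -0.00298 for TRBV2 (SE 0.0639) and 0.13 for TRBV20 (SE 0.0607).

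For J use after antigen, edgeR called 0 of 22 member combinations and 0% of all 242. DESeq2 likewise called 0 of the 22. Before adjustment, 5 of the 22 had an edgeR p under 0.05. As above, the share of all combinations under 0.05 before adjustment was not counted, and nothing is read from this. TRBV2 with TRBJ2-2 had 4.05, 4.42 and 4.74% of TRBV2 reads in heart extract nodes and 4.19 and 4.37% in myosin nodes, against 3.54, 3.83, 3.24 and 3.82% in adjuvant nodes. These groups did not overlap, as for 2.07% of all combinations (5 of 242), and the log2 ratio was 0.27 with SE 0.0823 (edgeR, adjusted p = 0.478). TRBV20 with TRBJ2-7 had 10.7, 8.90 and 11.1% in heart extract nodes and 9.14 and 8.83% in myosin nodes, against 7.39, 8.26, 9.23 and 8.65% in adjuvant nodes (log2 ratio 0.21, SE 0.0743, edgeR adjusted p = 0.478). Mean CDR3 length differed by 0.00117 residues for TRBV2 (limma, adjusted p = 0.973) and 0.03 residues for TRBV20 (adjusted p = 0.470), and the 10 largest CDR3s by log2 ratios of -0.30 and -0.06 (adjusted p = 0.971 each). Here too 0% of the 19 segments were called for length, concentration or diversity.

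The infarcted heart was set against its draining node to ask which receptors CD4+ T cells in the tissue carried. TRBV2 held 3.897, 4.25 and 2.03% of heart reads, against 4.16, 4.43 and 4.16% in MI nodes. Heart 3 had the lowest TRBV2 share of all 19 libraries, and heart 2 overlapped the MI nodes. The log2 ratio was -0.32 with SE 0.197 (edgeR, adjusted p = 0.252). It was -0.06 without heart 3 and -0.52 without heart 2, and passed the test in neither setting (edgeR, adjusted p = 0.641 and 0.0643). TRBV20 held 3.27, 2.93 and 2.78% of heart reads, below every MI node (3.48, 3.64 and 3.84%), with a log2 ratio of -0.29 and SE 0.195 (edgeR, adjusted p = 0.288). Of all segments 27.3% (6 of 22) were called, and 36.4% (8 of 22) did not overlap between hearts and MI nodes. Ordered by mean, TRBV2 was lowest in hearts (3.39% ± 1.19), then sham nodes, MI nodes, adjuvant nodes, myosin nodes (4.93% ± 0.291, n = 2) and heart extract nodes (5.05% ± 0.188), where the only gap between neighbouring ranges was that between MI and adjuvant nodes. For TRBV20 the order was hearts (2.99% ± 0.252), sham nodes, heart extract nodes (3.59% ± 0.0498), MI nodes, myosin nodes (3.70% ± 0.212) and adjuvant nodes, and every neighbouring pair of ranges overlapped, hearts and sham nodes only by sham node 2 at 3.26%, under heart 1 at 3.27%.

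Each heart held few CDR3s of these segments, and they were concentrated. TRBV2 had 145, 206 and 134 entries in hearts, of which 17, 31 and 16 had 100 or more reads and held 98.7, 99.2 and 98.7% of the segment's reads. TRBV20 had 191, 239 and 254 entries, of which 33, 45 and 44 had 100 or more reads. If the mean shares of reads in MI nodes were shares of cells, 5000 sorted cells would include about 212 TRBV2 and 183 TRBV20 cells. Whether they were was not tested. By share of entries in MI nodes the order was the other way, with means of 5.09% for TRBV2 and 7.13% for TRBV20. The 10 largest CDR3s held 78.0, 69.7 and 80.3% of TRBV2 reads in hearts, against 1.81, 3.34 and 1.81% in MI nodes. They held 60.2, 56.9 and 46.0% of TRBV20 reads in hearts, against 1.66, 1.83 and 2.24% in MI nodes. In 5000 drawn reads, hearts had 59.2, 63.6 and 53.9 distinct TRBV2 CDR3s and MI nodes 3544, 3659 and 3158.

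The log2 ratio of heart over MI node for the share of the 10 largest CDR3s was 5.10 in TRBV2 and 4.83 in TRBV20 (SE 0.243 each; limma, adjusted p = 1.20e-28 and 7.44e-28). All 15 segments tested (100%) passed, for concentration and for diversity alike, so the segments of a library moved together and these p-values are too small. An exact permutation of 3 libraries against 3 cannot give a two-sided p under 0.1. The number of sorted cells differed 5000 to 500000 between hearts and nodes and cannot be told apart from tissue in these values.

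**Figure D4:**
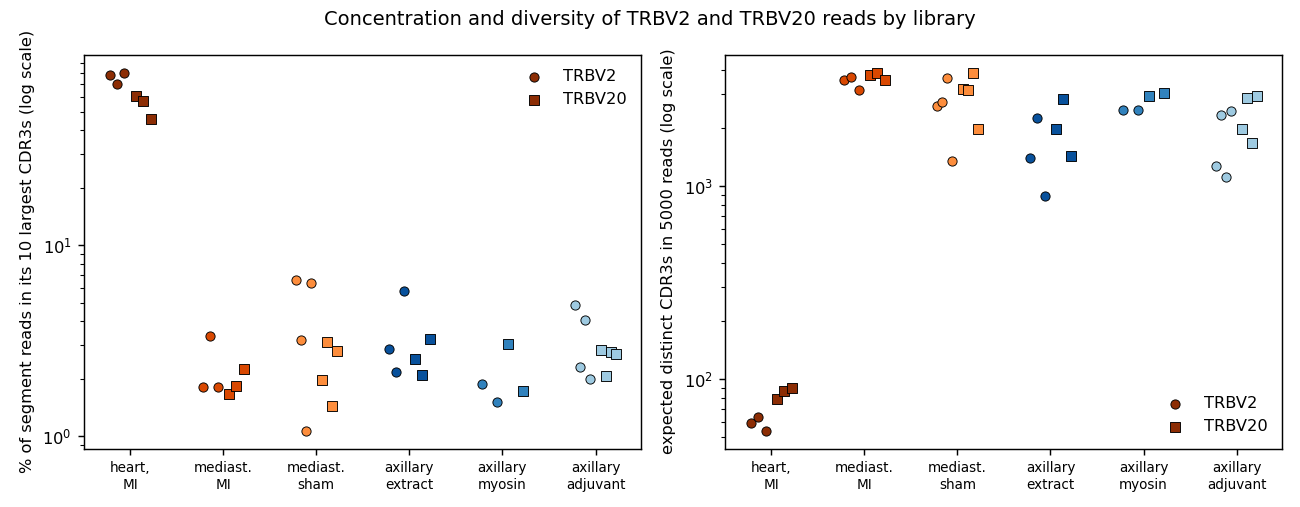
Left, share of a segment's reads (%, log scale) in its 10 largest CDR3s; right, expected number of distinct CDR3s in 5000 of its reads (log scale); points are libraries, circles TRBV2 and squares TRBV20, by group. Hearts hold 46.0 to 80.3% of reads in 10 CDR3s, whereas nodes hold 1.07 to 6.56%.

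The largest heart CDR3 differed in each heart. For TRBV2 it was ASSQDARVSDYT in heart 1 (14838 reads, 15.7% of TRBV2 reads, Wilson 95% interval 15.5 to 15.9%), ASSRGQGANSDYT in heart 2 (27344 reads, 14.6%) and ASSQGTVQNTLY in heart 3 (20808 reads, 20.0035%). The first was listed in 0 nodes, the second with 207 reads in MI node 2 alone, and the third with 19 reads in MI node 3 and 5 in MI node 1. For TRBV20 it was GARDRGQRSGNTLY in heart 1 (7897 reads, 9.96%), a CDR3 of 12 residues with TRBJ1-3 in heart 2 (14751 reads, 11.4%) and GAGQNYEQY in heart 3 (10823 reads, 7.60%). Among nodes these were listed with 11 reads in MI node 1, 153 reads in adjuvant node 3 and 103 reads in sham node 1. Of the CDR3s common in nodes, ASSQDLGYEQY (3344 reads, 3.21% of TRBV2 reads) and GARDSSGNTLY (2316 reads, 1.63% of TRBV20 reads) were both listed in heart 3 and in no other heart.

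Many heart reads had a CDR3 that was also listed in a node. MI nodes 1, 2 and 3 listed 25.3, 46.5 and 67.8% of the TRBV2 reads and 46.0, 51.9 and 50.2% of the TRBV20 reads of the heart with the same number, beside 38.9, 44.5 and 43.5% over all TRBV. Over all TRBV, MI nodes with another number listed less, 30.4 and 21.5% for heart 1, 24.5 and 24.2% for heart 2, and 32.3 and 34.7% for heart 3. Sham nodes listed 8.98 to 24.6% for heart 1, 7.56 to 27.5% for heart 2 and 6.88 to 32.4% for heart 3. Sham node 3 was the highest of them each time, and for heart 2 it was above both MI nodes with another number. For TRBV2 in heart 1, MI node 3 listed 25.8%, above MI node 1. In any mediastinal or axillary node, 49.6, 70.9 and 80.0% of TRBV2 heart reads and 64.8, 69.3 and 67.8% of TRBV20 heart reads were listed, beside 60.5, 65.1 and 70.7% over all TRBV. Node libraries differed in their number of entries, and the part of that in the sharing was not tested.

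J use was uneven in hearts, where each segment had few CDR3s. TRBJ1-1 was not listed for TRBV2 in hearts 1 and 3 and held 15.3% of TRBV2 reads in heart 2, against 8.94 to 9.25% in MI nodes. TRBJ2-2 held 21.1% of TRBV2 reads in heart 1, and TRBJ2-4 held 31.0% in heart 3. In TRBV20, TRBJ1-3 was higher in hearts, with 19.7, 21.7 and 12.7%, than in MI nodes, with 10.95, 10.4 and 10.7%, and the groups did not overlap, as for 34.9% of all combinations (73 of 209). Its log2 ratio was 0.76 with SE 0.278 (edgeR, adjusted p = 0.209), and it had the smallest p of all member combinations. TRBV2 with TRBJ1-4 had 9.08, 4.05 and 7.54% in hearts and 11.6, 11.5 and 11.1% in MI nodes (log2 ratio -0.73, SE 0.339, edgeR adjusted p = 0.341). In all, edgeR called 0 of 22 member combinations, with 12.9% (27 of 209) called over all segments. Before adjustment, 1 member had an edgeR p under 0.05, and the share of all combinations under 0.05 was not counted. DESeq2 called 1, TRBV20 with TRBJ1-3 (adjusted p = 0.0202), and 23.2% of all combinations (45 of 194). Without heart 3, edgeR called 5 of the 22 member combinations and 26.8% of all (56 of 209), with TRBV20 and TRBJ1-3 among them (log2 ratio 0.96, edgeR adjusted p = 0.0163).

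CDR3s in hearts were longer by 0.11 residues for TRBV2 and 0.39 residues for TRBV20 than in MI nodes, and neither passed limma's test (SE 0.143 and 0.229, adjusted p = 0.877 and 0.604; 0% of 15 segments called). TRBV20 averaged 12.14, 11.65 and 11.16 residues in hearts, against 11.25, 11.26 and 11.26 in MI nodes, so heart 3 lay below the nodes and hearts 1 and 2 above them.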

How the data were processed

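TCRβ reads were measured in 19 libraries. Per the labels, RNA of sorted CD4+ cells was amplified by amplicon-rescued multiplex PCR with gene-specific primers and sequenced as a pool on an Illumina HiSeq. The deposited values are unnormalised whole-number read counts per CDR3, TRBV and TRBJ. The lowest count listed was 2, so an unlisted CDR3 is not shown to be absent. No source used here names the aligner, the error correction, the segment reference or a genome build, and no coordinates are printed. All 22 segment names matched the RefSeq table.

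Reads were summed per segment and per combination and tested with edgeR 4.0.16 in R 4.3.3 (glmQLFit, robust, legacy settings), with the library total, or the segment's total for TRBJ use, as offset. Combinations needed 20 reads in all. Concentration and the CDR3s expected in 5000 drawn reads were tested as log2 values, with length, by limma 3.58.1 over segments with 5000 or more reads in every library. All 16 nodes shared a fit, and hearts and MI nodes had a separate fit of 6 libraries. DESeq2 1.42.0 was an alternative. Benjamini-Hochberg adjustment ran over all features of a comparison, with a threshold of 0.05. The edgeR fit with library totals as offset was tested on simulated counts, and limma on a large simulated shift. The fit with the segment's total as offset was not simulated.

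The members and lists were chosen with earlier results of these data known. Named TRBV segments were the 3 most correlated per member; named CDR3s were the 5 with the highest mean share, the most abundant per heart and the most abundant in any node, and those in all 16 nodes were counted and added after their values were seen. Alternatives were distinct CDR3s in place of reads, entries under 10 reads left out, other scaling, no filter, the replicate block and each library left out. Leaving out low entries repeated under another segment was added after seeing the data.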

Additional observations from a re-analysis of the deposited data

Results flagged for a closer look

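In groups of 4 libraries, 68 sets of TRBV2 and TRBV20 values were checked for a library standing far from the other 3, which chance alone gives for about 1 group in 20. This was so for 3 of them, all among adjuvant nodes. Adjuvant node 1 had a mean TRBV2 CDR3 length of 12.71 residues, against 12.53 to 12.55 in the other adjuvant nodes. The same library had TRBJ2-5 in 7.33% of its TRBV2 reads, against 9.88 to 10.4% in the others. Adjuvant node 2 had 2.06% of its TRBV20 reads in the 10 largest CDR3s, against 2.70 to 2.82% in the others.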

How the results depend on the processing

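Counting distinct CDR3s in place of reads turned the log2 ratio of sham over adjuvant to 0.00848 for TRBV2 and 0.10 for TRBV20, and the difference of TRBV20 from the other TRBV in TRBJ2-1 to 0.128 percentage points. It also took TRBV20 in hearts against MI nodes past the threshold (log2 ratio -0.40, edgeR adjusted p = 0.0452), with 45.5% of segments called. The cause was not tested. Scaling by TMM gave site ratios of -0.29 and -0.19, and leaving out entries under 10 reads gave -0.22 and -0.17. Leaving out each library in turn gave -0.26 to -0.21 for TRBV2 and -0.15 to -0.09 for TRBV20, log2 ratios of -1.20 (without sham node 3) to -0.33 for the TRBV2 share of the 10 largest CDR3s in MI against sham nodes, and 0 to 1 TRBV2 and 0 to 4 TRBV20 combinations called in hearts against MI nodes. The single TRBV2 combination was TRBJ1-5 without heart 1, TRBJ1-1 without heart 2 and TRBJ1-2 without heart 3. Over all segments 24.5% (54 of 220), 19.1% (40 of 209) and 26.8% (56 of 209) of combinations were called in these settings. The 4 TRBV20 combinations came without heart 3 (2 higher, TRBJ1-3 and TRBJ2-5, and 2 lower, TRBJ1-2 and TRBJ1-5), and DESeq2 called 1. TRBV2 with TRBJ1-5 or TRBJ1-1 and TRBV20 with TRBJ1-5 were not listed in any heart left in their setting, so those calls rest on 0 reads in hearts. Apart from these, 455 recomputed values of the comparisons were counted as holding. For tested values that means the same side of the threshold, for the untested site ratios a shift under the pooled SD, and for numbers of calls an equal or similar count. Of the 455, 37 tested values, all short of the threshold, had the opposite sign, such as TRBV2 in MI against sham nodes (-0.00956) and TRBV2 length in hearts against MI nodes (-0.00898). Of the 37, 10 belong to TRBV2 in MI over sham minus antigen over adjuvant, the contrast whose test is not read. Of the recomputed TRBJ and length differences between segments 65 kept direction and threshold. Against the other TRBV, 6 lost the threshold: over distinct CDR3s, TRBV2 in TRBJ1-3, TRBJ1-4 and TRBJ2-1 (0.45, -0.39 and -0.18 points) and TRBV20 in TRBJ1-1 and TRBJ2-3 (-0.34 and 0.34 points), and without entries under 10 reads, TRBV20 in TRBJ1-5 (0.20 points). Whether replicate numbers pair libraries was not tested. Same-numbered hearts and MI nodes correlated at 0.04, 0.04 and 0.05 in their deviations, and other-numbered ones at -0.03 to -0.00379. Each heart thus correlated best with its own number, and the main tests of hearts against MI nodes took no account of the numbers. Same-numbered MI and sham nodes correlated at 0.00250, 0.00189 and -0.0317, and none was the highest of its MI node. With the replicate block no call changed. In hearts against MI nodes, edgeR with the block called 0 of 22 member combinations. MI over sham with the block was 0.02 for TRBV2 and 0.06 for TRBV20 (edgeR, adjusted p = 0.840 each), though these numbers showed no such match. Reads set the precision: heart values rest on 79319 to 186844 reads of a segment but on 16 to 45 CDR3s with 100 or more reads.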
